A study of Mus musculus with 7 samples.

Results

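The transcripts of 10 heat shock proteins were examined in retinal microglia (rMG) labelled Irf8 KO, before and after laser injury of the retina. The 10 genes, chosen by symbol, were Hspa1a, Hspa1b, Hspa8, Hsp90aa1, Hsp90ab1, Hsph1, Hspd1, Hspe1, Dnajb1 and Hspb1, out of 40743 gene symbols in the deposited table. Each symbol had 1 row, and 9 of the 10 genes passed the filter on low values. RNA-seq had been performed on 7 libraries. Of these, 3 belonged to the unlasered group and 4 to the lasered group, sampled on day 7 after laser photocoagulation, a model of choroidal neovascularisation (CNV). All mice were adult, on a C57BL/6J background, with the genotype Irf8-/- Cx3cr1GFP/+, so both groups lacked the transcription factor IRF8 according to their label and carried GFP in a Cx3cr1 allele. Each library came from cells pooled from 3 to 4 mice and sorted as CD45low CD11b+ Cx3cr1GFP/+ Ly6C- Ly6G-, with 10000 cells on average. In lasered mice only the central retina was sorted, a step not described for unlasered mice, so that laser injury and the sorted region cannot be told apart. Libraries of mice with intact Irf8 were not analysed here. The question addressed was whether transcripts of the heat shock response differed between resting and lesion-associated rMG of this genotype.

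Heat shock proteins are chaperones. They bind unfolded segments of other proteins, keep them from aggregating and release them for folding or degradation. HSP70 proteins work in cycles of ATP hydrolysis that are started by HSP40 (DNAJ) proteins and reset by exchange factors such as HSP110, while HSP90 acts later on kinases and receptors, and HSP60 with its lid HSP10 folds proteins inside mitochondria. Some family members are made at all times. Others are switched on by heat shock factor 1 (HSF1) when unfolded proteins accumulate, and Hspa1a and Hspa1b are the classic examples of the latter. The inducible members are also known to respond to the handling of live tissue, such as dissociation and sorting.

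Library depth ranged from 20427558 to 36022954 reads in the unlasered group and from 37133297 to 45919042 reads in the lasered group. A level of 3 reads, taken as the floor, corresponded to between 0.0653 and 0.147 CPM, the reads of a gene scaled to 1000000 reads in each library. Reads are not independent molecules, and this limit reflects counting error alone. Irf8 itself (ENSMUSG00000041515), listed jointly with an overlapping gene, was measured at 509 ± 20.6 CPM (SD, n = 3) in unlasered and 496 ± 57.6 CPM (SD, n = 4) in lasered libraries. The libraries are therefore called by their label. The 13 microglia markers summed to between 33460 and 41160 CPM in all 7 libraries, and limma called 0 of them (3 had an unadjusted p under 0.05, edgeR called 0 and DESeq2 1, P2ry12). Of 15 tested markers of pigment epithelium, lens, endothelium, monocytes, neutrophils and lymphocytes, limma also called 0 (3 at an unadjusted p under 0.05, edgeR 0 and DESeq2 1). Of 8 tested Mueller glia markers 6 had a log2 fold change below 0, with a median of -0.44, and 1 was called higher and 1 lower. Rod photoreceptor markers stood apart. Their sum was 2251, 20190 and 5780 CPM in unlasered libraries 1, 2 and 3, against 321 to 1020 CPM in the lasered libraries, and limma called 14 of 15 lower after laser injury. All 15 exceeded the floor in at least 1 library.

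Among the 10 genes, Hspa8 and Hsp90ab1 were the most abundant and ranked 158 and 195 among all genes by their mean level in unlasered libraries. Per kilobase of exon, Hsp90ab1 was measured at 173 ± 18.1 and Hspa8 at 146 ± 30.1 CPM per kb in unlasered libraries (SD, n = 3), and the ranges of this pair overlapped. The row for Hspa8 also contained reads of other entries, as described below, so its place in the order carries that limit. In addition, 39.4% of the 50-base words of Hspa8 also occurred in other genes, against 3.44% for Hsp90ab1. Reads of Hspa8 could thus be listed under other genes, and the order of this pair is uncertain in both groups. Hsp90aa1, Hspd1 and Dnajb1 followed with means of 40.4, 28.8 and 28.1 CPM per kb, and neighbours among these 3 genes overlapped. Hspe1 was measured at 11.3 CPM per kb, Hspa1b at 5.43, Hsph1 at 4.79 and Hspa1a at 2.95, again with overlapping ranges between neighbours. Hspb1 was at the bottom with 0.118 CPM per kb. In lasered libraries Hsp90ab1 with 148.5 and Hspa8 with 116 CPM per kb were again on top, with ranges that no longer overlapped. Hspa1b lay below Hsph1 there, and Hspa1b and Hspa1a had means of 1.10 and 0.490 CPM per kb.

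**Figure D1:**
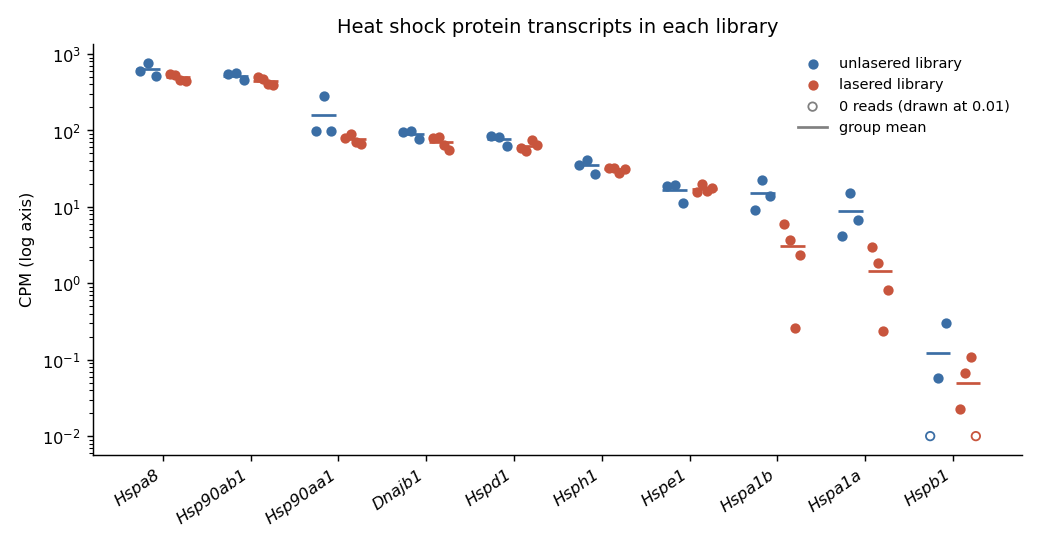
Level of each heat shock protein transcript in each of the 3 unlasered (blue) and 4 lasered (red) libraries, in CPM on a log axis; horizontal lines are group means and open circles mark libraries with 0 reads. Hspa1a, Hspa1b and Hsp90aa1 were lower in all 4 lasered libraries than in all 3 unlasered libraries, and the groups of the other 7 genes overlapped.

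The inducible HSP70 genes Hspa1a and Hspa1b showed the largest differences of the 10 genes. Both encode nearly identical cytosolic HSP70 proteins. Hspa1a was measured at 4.21, 15.2 and 6.83 CPM in unlasered libraries 1, 2 and 3, and at 2.95, 1.83, 0.240 and 0.808 CPM in lasered libraries 1, 2, 3 and 4. All lasered libraries lay below all unlasered libraries, with the highest value in unlasered library 2 and the lowest in lasered library 3. The mean fell from 8.74 ± 5.73 (SD, n = 3) to 1.45 ± 1.19 CPM (SD, n = 4), a log2 fold change of -1.96 with a standard error of 0.47 (limma on log2(CPM + 1), adjusted p = 0.041). Hspa1b was measured at 9.15, 22.8 and 13.7 CPM in unlasered and at 5.98, 3.72, 0.261 and 2.32 CPM in lasered libraries. The order of the libraries was the same at both ends, and the groups did not overlap. The log2 fold change was -2.16 with a standard error of 0.54 (limma, adjusted p = 0.046). On this scale the fold change of such low genes is understated. The ratio of the group means was 6.01 for Hspa1a and 4.96 for Hspa1b.

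Both calls were close to the threshold. The values of lasered library 3 rested on 11 reads for Hspa1a and 12 for Hspa1b. When single libraries were left out, the log2 fold change of Hspa1a stayed between -2.33 and -1.51 and that of Hspa1b between -2.50 and -1.68. However, the call of Hspa1a was lost without unlasered library 2 (limma, adjusted p = 0.099), unlasered library 3 (0.065), or lasered library 2 (0.084), 3 (0.092) or 4 (0.085). The call of Hspa1b was lost without unlasered library 1 (limma, adjusted p = 0.062), 2 (0.13) or 3 (0.079), or lasered library 2 (0.088), 3 (0.062) or 4 (0.089). On recovered reads edgeR called neither gene (adjusted p = 0.069 and 0.11), and DESeq2 called Hspa1a (adjusted p = 0.0024) but not Hspa1b (0.077). Over all genes edgeR called 3.45% and DESeq2 6.52% lower.

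Hspa1a (ENSMUSG00000091971, GRCm38 chromosome 17, 34969190 to 34972156) and Hspa1b (ENSMUSG00000090877, chromosome 17, 34956436 to 34959238) lie on the minus strand, 9952 bases apart. Of the 50-base words in the exons of Hspa1a, 58.8% also occurred in Hspa1b, so that reads could be split between both genes and their separate values are uncertain. The ratio of Hspa1a to Hspa1b was between 0.349 and 0.917 in the 7 libraries. When both genes were added together with the 3 further entries that share at least 100 such words, a step added once the values were known, the sum was 20.7, 50.6 and 28.8 CPM in unlasered and 13.3, 8.86, 2.16 and 4.66 CPM in lasered libraries. The sum was lower after laser injury by a log2 fold change of -2.18 (limma, adjusted p = 0.035). The upstream sequences of the pair are given because their levels moved together. They cover the 250 bases before the annotated start site (RefSeq, GRCm38.p6, minus strand, chr17:34972157-34972406 for Hspa1a and chr17:34959239-34959488 for Hspa1b), and capitals mark a match to GAANNTTC, a pair of the inverted units bound by HSF1.
Hspa1a: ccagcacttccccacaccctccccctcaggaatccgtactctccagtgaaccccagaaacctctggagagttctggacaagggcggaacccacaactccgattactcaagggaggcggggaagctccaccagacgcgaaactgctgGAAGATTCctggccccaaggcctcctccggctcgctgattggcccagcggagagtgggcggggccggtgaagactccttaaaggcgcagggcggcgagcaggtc
Hspa1b: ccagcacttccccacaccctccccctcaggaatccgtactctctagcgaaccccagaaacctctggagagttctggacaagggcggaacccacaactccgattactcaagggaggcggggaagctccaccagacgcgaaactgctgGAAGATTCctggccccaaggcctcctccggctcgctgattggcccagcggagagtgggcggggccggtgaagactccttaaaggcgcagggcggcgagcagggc
The 2 sequences differed at 3 of 250 bases and were 98.8% identical. The match began at position -104 from the start site in both.

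Promoter sequences were listed for 7 of the 10 genes, and in 6 of these the 250 upstream bases of at least 1 start site held GAANNTTC or TTCNNGAA. Both motifs read the same on either strand. Of 27025 promoters, the first listed for each gene, 12.9% held at least 1 of the motifs, 6.78% GAANNTTC and 7.11% TTCNNGAA. These shares are not like the count of the 6 genes, for which any start site counted. The first listed window of Hspd1 held 0 matches, and its matches lay in its other window. A run of 3 overlapping units, GAANNTTCNNGAA or TTCNNGAANNTTC, was found in 0.400% of promoters and in those of Hspe1 and Hspd1, which share it. Dnajb1 held no match in either of its windows. The stretches of 30 bases with the matches in capitals are given to compare spacing, for Hspe1 on the plus strand (chr1:55088053-55088082), Hspb1 on the plus strand (chr5:135887801-135887830) and Hsph1 on the minus strand (chr5:149636351-149636380).
Hspe1: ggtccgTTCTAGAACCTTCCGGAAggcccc
Hspb1: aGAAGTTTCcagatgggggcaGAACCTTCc
Hsph1: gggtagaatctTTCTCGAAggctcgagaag
A match describes these letters only. Hspe1, with the longest run, was not called, and Hspb1, with a pair of separate matches, was near the floor in most libraries.

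Hspa8 (ENSMUSG00000015656, chromosome 9, 40800984 to 40810087, plus strand) encodes HSC70, the constitutive cytosolic HSP70, which also directs proteins to lysosomes and uncoats clathrin vesicles. Its level was 593, 772 and 520.2 CPM in unlasered and 556.5, 527, 460.1 and 446 CPM in lasered libraries. The highest value was again in unlasered library 2, and the groups overlapped. The log2 fold change was -0.32 with a 95% interval from -0.67 to 0.03 (limma, adjusted p = 0.25). The table lists 5 entries under this symbol, including antisense reads, reads shared with a small nucleolar RNA and the gene Hspb8, which could not be separated. Several processed pseudogenes that share 50-base words with Hspa8 were listed with high values, so reads could be split between them and Hspa8. Gm15459 (chromosome 5, 5781615 to 5783555) was at 288, 363 and 250.3 CPM in unlasered and at 265, 252, 222 and 216 CPM in lasered libraries. Its ratio to Hspa8 was between 0.470 and 0.486 in all 7 libraries, and Gm26825, annotated at the same place on the other strand, was at a ratio between 0.441 and 0.471. The library preparation does not mark strand, so reads of this pair cannot be told apart. With 9 entries that share at least 100 words of 50 bases added, the sum was 1731, 2226 and 1491 CPM in unlasered and 1592, 1505, 1323 and 1271 CPM in lasered libraries. The log2 fold change was then -0.34 (limma, adjusted p = 0.23).

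The HSP90 genes differed in spread. Hsp90aa1 (ENSMUSG00000021270, chromosome 12, 110690605 to 110702728, minus strand) encodes the stress-responsive HSP90 alpha. Its level was 98.7, 279 and 98.4 CPM in unlasered and 80.1, 90.4, 71.7 and 65.5 CPM in lasered libraries. Unlasered library 2 was far above the rest, and the groups did not overlap. The log2 fold change was -0.86 with a 95% interval from -1.62 to -0.10 (limma, adjusted p = 0.17). Without unlasered library 2 it was -0.36 (limma, adjusted p = 0.28), whereas DESeq2 on the recovered reads of all libraries called the gene lower with a log2 fold change of -1.04 (adjusted p = 0.021). The pseudogene Gm5844 (chromosome 3, 18008806 to 18010996) shares 29.9% of the words of Hsp90aa1, so reads could be split between both. It was listed at 46.8, 144 and 47.1 CPM in unlasered and 28.1 to 38.3 CPM in lasered libraries. Hsp90ab1 (ENSMUSG00000023944, chromosome 17, 45567775 to 45573271, minus strand) encodes the constitutive HSP90 beta. It was measured at 544, 557 and 457 CPM in unlasered and at 507.5, 465, 412 and 397 CPM in lasered libraries. Its groups overlapped, and the log2 fold change was -0.22 with a 95% interval from -0.52 to 0.07 (limma, adjusted p = 0.35).

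Dnajb1 (ENSMUSG00000005483, chromosome 8, 83608193 to 83612653, plus strand) encodes HSP40, which delivers substrates to HSP70 and stimulates its ATPase. Levels of Dnajb1 were 96.5, 97.4 and 76.3 CPM in unlasered and 78.6, 81.8, 63.7 and 56.1 CPM in lasered libraries. Only unlasered library 3 fell within the range of the lasered group. The log2 fold change was -0.37 with a 95% interval from -0.75 to 0.02 (limma, adjusted p = 0.24). Hsph1 (ENSMUSG00000029657, chromosome 5, 149614287 to 149636376, minus strand) encodes HSP110, a nucleotide exchange factor of HSP70. Levels of Hsph1 were 35.7, 41.6 and 27.0 CPM in unlasered and 32.5, 32.1, 27.6 and 31.5 CPM in lasered libraries. All lasered values fell within the unlasered range, with a log2 fold change of -0.15 and a 95% interval from -0.53 to 0.24 (limma, adjusted p = 0.67). Hsph1 shared none of its 50-base words with another gene.

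Hspd1 and Hspe1 encode the mitochondrial chaperonin HSP60 and its lid HSP10. The genes lie head to head on chromosome 1. Hspd1 (ENSMUSG00000025980, 55077835 to 55088243) is on the minus strand and Hspe1 (ENSMUSG00000073676, 55088132 to 55091307) on the plus strand, and their first exons overlap, where reads of both genes cannot be told apart. Hspd1 was measured at 84.0, 81.8 and 62.8 CPM in unlasered and at 58.8, 54.0, 75.9 and 65.1 CPM in lasered libraries. Unlasered library 3 lay among the lasered libraries, and the log2 fold change was -0.26 with a 95% interval from -0.63 to 0.11 (limma, adjusted p = 0.39). Hspe1 was measured at 19.0, 19.6 and 11.4 CPM in unlasered and at 15.5, 19.9, 16.0 and 17.7 CPM in lasered libraries. It was the 1 gene of the 9 tested with a positive log2 fold change, 0.08 with a 95% interval from -0.40 to 0.56 (limma, adjusted p = 0.86), and the sign turned to -0.16 without unlasered library 3. The ratio of Hspe1 to Hspd1 was 0.215 ± 0.031 (SD, n = 3) in unlasered and 0.279 ± 0.065 (SD, n = 4) in lasered libraries, with overlapping ranges. The processed pseudogene Hspd1-ps3 (chromosome 11, 41498737 to 41500458), which shares 38.0% of the words of Hspd1, was listed at 69.4, 67.8 and 48.6 CPM in unlasered and at 48.3, 44.6, 66.7 and 53.5 CPM in lasered libraries. These values were 77.3% to 87.9% of those of Hspd1, and its log2 fold change was -0.21 (limma, adjusted p = 0.56). Reads could be split between Hspd1 and this copy, so their separate values are uncertain.

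**Figure D2:**
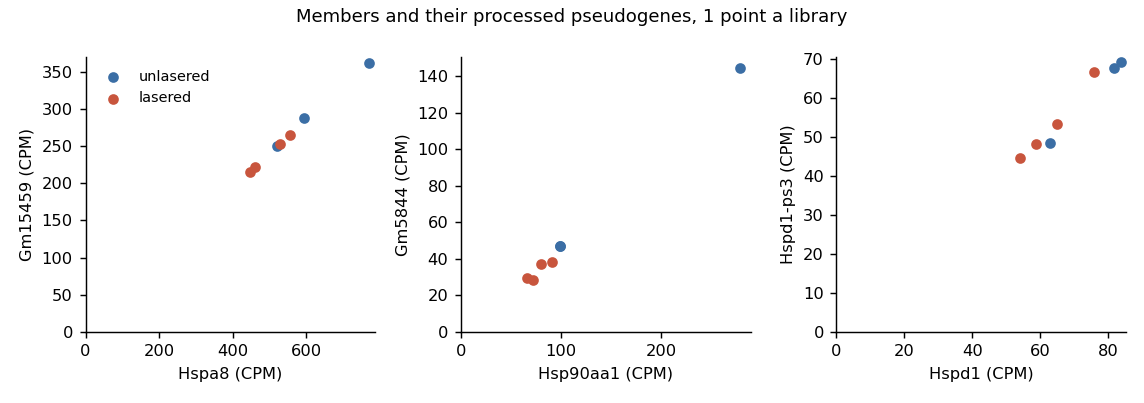
Level of a processed pseudogene against the heat shock protein gene it copies, 1 point for each library (blue unlasered, red lasered), both axes in CPM from 0. The ratio lay between 0.470 and 0.486 for Gm15459 to Hspa8, between 0.392 and 0.518 for Gm5844 to Hsp90aa1 and between 0.773 and 0.879 for Hspd1-ps3 to Hspd1. Reads from shared sequence could be listed under either gene of a pair.

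Hspb1 (ENSMUSG00000004951, chromosome 5, 135887919 to 135889563, plus strand) encodes HSP27, a small heat shock protein that holds unfolded proteins without ATP. It had 0, 2 and 11 reads in unlasered and 1, 3, 5 and 0 reads in lasered libraries. The highest level was 0.305 CPM in unlasered library 3. With 5 of 7 libraries at or under the floor, the gene was not tested and a difference was not detectable at this depth.

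Of the 9 genes tested, limma called 2 lower and 0 higher in lasered rMG. At an unadjusted p under 0.05 there were 3 lower and 0 higher genes, edgeR called 0 and DESeq2 2, Hspa1a and Hsp90aa1, both lower. The share of all genes at that unadjusted p is not given here. Over all 17496 genes tested, limma called 6.93%, with 3.07% lower and 3.86% higher. The groups did not overlap for 3 of the 9 genes, all in the lower direction, against 10.7% of all genes in that direction and 10.4% in the other. Of the 9 genes 8 had a log2 fold change below 0, against 51.6% of all genes, and the median was -0.32 against -0.01. Several of the genes share a regulator or sequence, and all were chosen with results of these libraries known, so these counts are a description. With TMM scaling by factors from all listed genes, the median of all genes moved to 0.10. The median of the 9 genes was then -0.20, with the same 2 genes called. With edgeR, whose TMM factors came from the tested genes alone, these medians were -0.02 and -0.33.

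**Figure D3:**
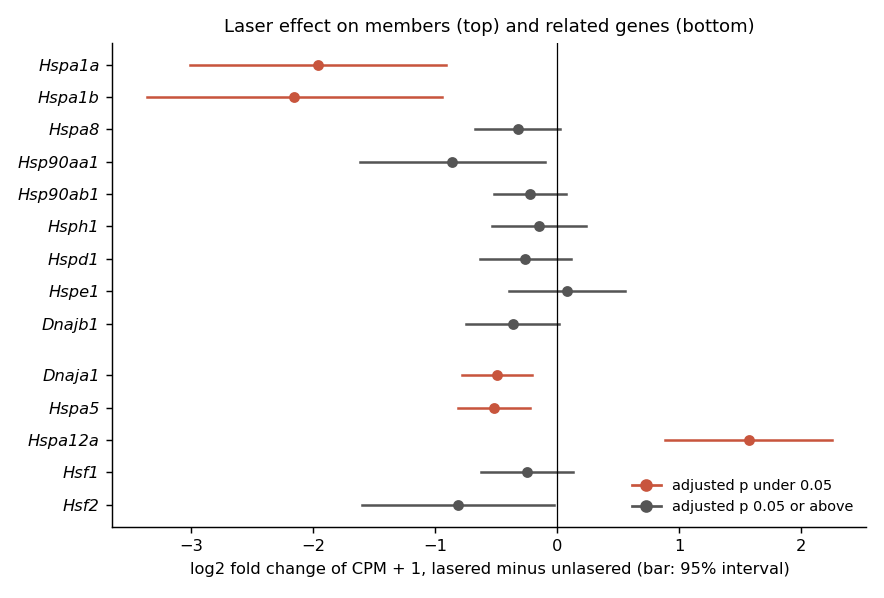
Log2 fold change (lasered minus unlasered, on the scale of log2(CPM + 1)) with its 95% interval for the 9 tested heat shock protein genes (top) and for related genes (bottom), red where the adjusted p of limma was under 0.05. Hspa1a and Hspa1b are the 2 called genes at the top, and of the intervals of the other 7 only that of Hsp90aa1 lies below 0.

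The ratio of inducible to constitutive forms was compared within each library. The sum of Hspa1a and Hspa1b amounted to 0.0225, 0.0492 and 0.0395 of Hspa8 in unlasered and to 0.0160, 0.0105, 0.00109 and 0.00701 in lasered libraries. These groups did not overlap. On the log2 scale the difference of the means was -2.56, and between -3.03 and -1.74 when single libraries were left out. Hsp90aa1 amounted to 0.181, 0.500 and 0.215 of Hsp90ab1 in unlasered and to 0.158, 0.195, 0.174 and 0.165 in lasered libraries, where unlasered library 1 lay within the lasered range. The difference of the log2 means was -0.64, and -0.20 without unlasered library 2. Hence for the HSP90 pair the size of the difference rested on that library.

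Rod transcripts were lower after laser injury, as were Hspa1a and Hspa1b. Unlasered library 2 had the highest sum of rod markers, 20190 CPM, and also the highest level of 7 of the 9 tested genes, namely Hspa1a, Hspa1b, Hspa8, Hsp90aa1, Hsp90ab1, Hsph1 and Dnajb1. The other unlasered libraries, with 2251 and 5780 CPM of rod markers, lay above all lasered libraries in Hspa1a, Hspa1b and the rod sum. Within the unlasered group, the rod sum, Hspa1a and Hspa1b had the same order, with library 2 highest and library 1 lowest. Within the lasered group, library 1 had the highest Hspa1a, Hspa1b and rod sum, and library 3 had the lowest Hspa1a and Hspa1b and the second highest rod sum, 821 CPM. The part of rod RNA in the differences was not tested. The Mueller glia markers summed to 77388, 75381 and 52415 CPM in unlasered and to 29572, 40814, 46760 and 72727 CPM in lasered libraries, with overlapping groups. Apoe, which microglia also express, made up 98.2% to 99.5% of this sum. Without it the sum was 959.6, 681 and 827 CPM in unlasered and 523, 715, 322 and 377 CPM in lasered libraries. Rlbp1 and Glul overlapped between the groups. Of the 8 tested markers, however, 4 had an unadjusted p under 0.05 with limma, 2 higher and 2 lower. Of these 8, edgeR called 1 and DESeq2 2. The part of Mueller glia RNA was not tested. In bulk samples a change in the share of a cell type and a change of RNA in each cell cannot be told apart. The 22 immediate early genes, which also respond to the handling of tissue, summed to 1608, 1632 and 1639 CPM in unlasered and to 1559, 1736, 1257 and 1657 CPM in lasered libraries, with the lowest sum in lasered library 3. Of 20 tested, 3 were higher, namely Gadd45b (log2 fold change 1.47), Egr2 (1.23) and Socs3 (1.01), and 2 were lower, Nr4a1 (-2.10) and Ier3 (-1.13). Their median was -0.06. Over all genes tested, limma called 6.93%, with 3.86% higher and 3.07% lower. The part of handling was not tested.

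**Figure D4:**
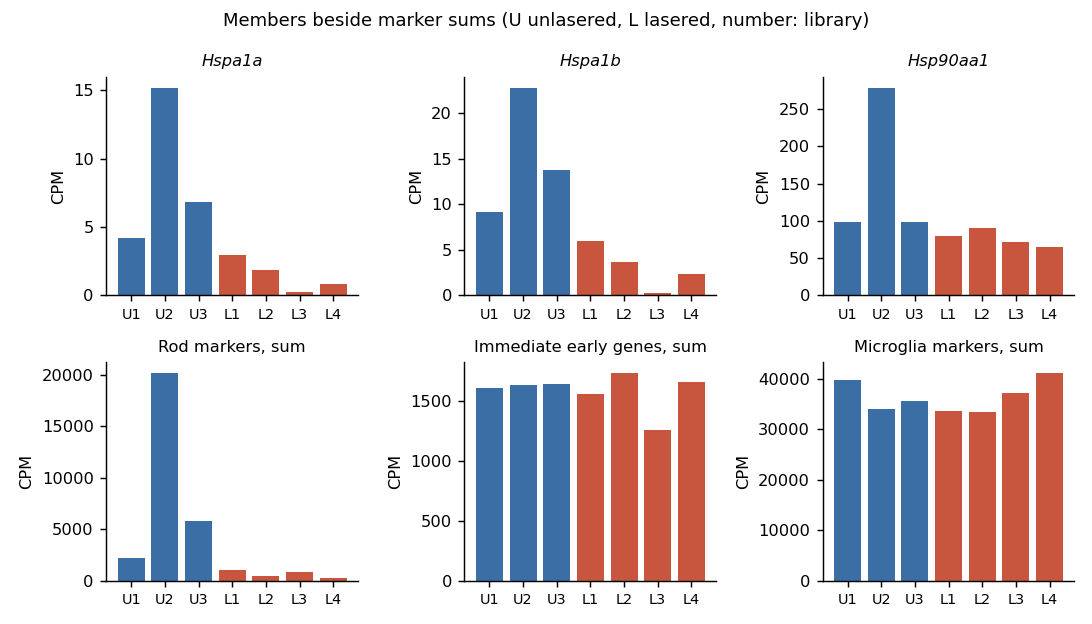
Bars give the level in each library (U unlasered, L lasered, numbered as in the labels) in CPM from 0, for Hspa1a, Hspa1b and Hsp90aa1 and for the summed levels of rod markers, immediate early genes and microglia markers. Unlasered library 2 is highest in the 3 heat shock genes and in the rod sum of 20190 CPM, whereas the microglia sums stay between 33460 and 41160 CPM.

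Further chaperone genes were examined in 8 lists of families and partners. Of 112 genes tested in these lists, 4 were lower and 1 higher after laser injury. The share called lower, 3.57%, was close to the 3.07% of all genes. A log2 fold change below 0 was found for 86 of the 112 genes (76.8%), with a median of -0.17. With TMM scaling the figures were 63 of 112 and -0.05, against 39.5% of all genes below 0, and the median stayed 0.14 below that of all genes. This scaling, with factors from all listed genes, also turned the calls to 2 lower and 4 higher. Bag1, Fkbp5 and Pfdn5 were added as higher, and Hspa5 and Dnaja1 were lost. With edgeR, whose TMM factors came from the tested genes alone, 86 of 112 were below 0. The median was then -0.18, with 2 called lower and 1 higher. In the HSP70 family 13 of 15 genes were tested, 3 were lower and 1 higher. Besides Hspa1a and Hspa1b, the lower gene was Hspa5, which encodes BiP, the HSP70 of the endoplasmic reticulum. It was measured at 1968, 2144 and 1522 CPM in unlasered and at 1339, 1209.7, 1313 and 1330 CPM in lasered libraries, without overlap (log2 fold change -0.52, limma, adjusted p = 0.048). The higher gene was Hspa12a, an atypical and distant HSP70. It was measured at 6.07, 4.64 and 11.3 CPM in unlasered and at 32.3, 16.2, 23.0 and 20.7 CPM in lasered libraries, without overlap (log2 fold change 1.57, limma, adjusted p = 0.022). Hence, Hspa12a moved in the direction opposite to Hspa1a and Hspa1b. When single libraries were left out, Hspa12a was called in 3 of 7 fits (without unlasered library 3, or lasered library 2 or 4), with log2 fold changes between 1.33 and 1.89 (limma, adjusted p at most 0.061). Hspa5 was called in 1 of 7, without unlasered library 3, with log2 fold changes between -0.66 and -0.42 (limma, adjusted p at most 0.15). On recovered reads edgeR called Hspa12a but not Hspa5, and DESeq2 called both.

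Among 35 HSP40 co-chaperones only Dnaja1 was called. Dnaja1, a cytosolic partner of HSC70, was measured at 86.7, 94.0 and 87.2 CPM in unlasered and at 71.1, 65.1, 59.6 and 57.8 CPM in lasered libraries (log2 fold change -0.49, limma, adjusted p = 0.04994), just inside the threshold. It was called in 0 of 7 fits with a library left out (limma, adjusted p between 0.054 and 0.14), whereas edgeR and DESeq2 called it lower. The median of the HSP40 list was -0.19. With limma 0 genes were called among 20 genes of the HSP90 family and its co-chaperones, 15 mitochondrial chaperones and proteases, 14 genes of TRiC and prefoldin, 9 exchange and degradation partners, 3 small heat shock proteins and 6 heat shock factors and regulators. Of these 66 genes 19 had an unadjusted p under 0.05, of which 13 were lower, edgeR called 1 (Hspb6) and DESeq2 8. The share of all genes at that unadjusted p is not given here, so the 19 are a description. Over all 17496 genes tested, edgeR called 1266 and DESeq2 2318. The medians of the lists were -0.22, -0.19, -0.10, -0.06, -0.75 and -0.25. Among 26 tested genes known to be inducible by HSF1, 3 were lower, namely Hspa1a, Hspa1b and Dnaja1, and 21 had a log2 fold change below 0. Over all genes tested, limma called 3.07% lower, and 51.6% had a log2 fold change below 0. The median of the HSF1-inducible list, which holds all 9 tested genes described above, was -0.24, and -0.17 over its 17 other genes. Of those 17, limma called 1. Without unlasered library 2 limma called 0 of the 26 (4 at an unadjusted p under 0.05), and the median was -0.18.

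**Figure D5:**
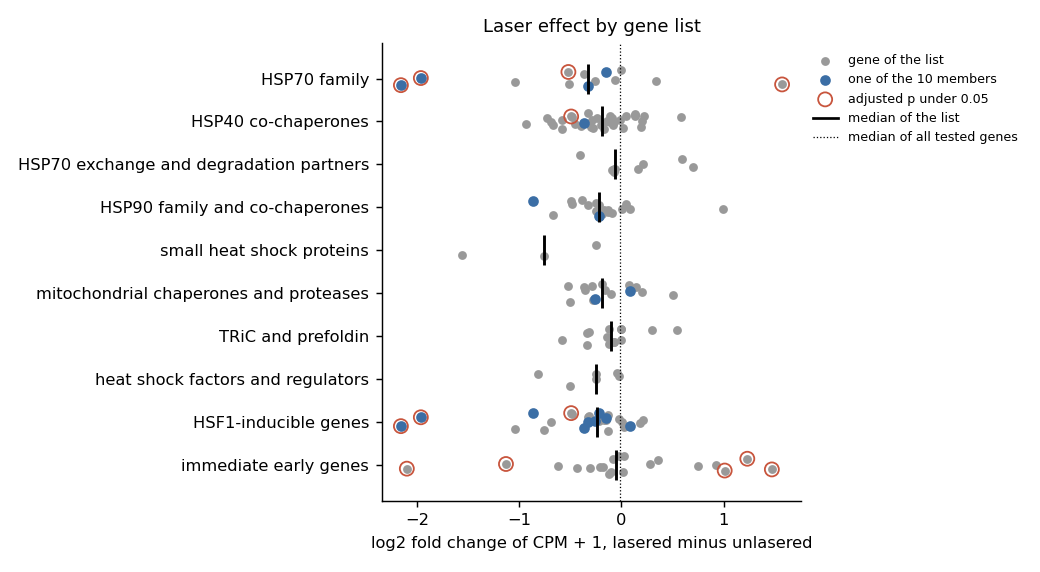
Log2 fold change (lasered minus unlasered, on the scale of log2(CPM + 1)) of each tested gene in 10 lists, with the genes described in detail in blue, called genes ringed in red, the median of each list as a vertical bar and the median of all tested genes as a dotted line. Hspa1a and Hspa1b lie at -1.96 and -2.16, far from the medians of their lists at -0.32 and -0.24.

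The heat shock factors Hsf1 and Hsf2 were examined as well. Hsf1, the main activator of these genes, was at 29.9, 29.3 and 36.0 CPM in unlasered and at 27.3, 30.1, 20.9 and 28.5 CPM in lasered libraries, with overlapping groups (log2 fold change -0.25, limma, adjusted p = 0.43). Hsf2, a related factor, was at 11.99, 14.1 and 6.38 CPM in unlasered and at 6.46, 9.04, 4.68 and 3.07 CPM in lasered libraries (log2 fold change -0.81, limma, adjusted p = 0.21). HSF1 is regulated mainly at the protein level, which these data do not measure.

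Genes with the most similar profiles over the 7 libraries were sought among 10281 further genes with a mean of at least 10 CPM. For the mean of Hspa1a, Hspa1b, Dnajb1 and Hsph1 these were Thrb, Dnttip2, Ypel2, Stx2 and Pdzph1, with Pearson correlations between 0.959 and 0.969. For Hspd1 and Hspe1 they were Tubb4b, 0610009B22Rik, Polr2m, Pak1ip1 and Hsbp1, between 0.970 and 0.992. For Hspa8, Hsp90aa1 and Hsp90ab1 they were Gm6210, Gm15459, Ubxn4, Gm5844 and Gm8355, between 0.981 and 0.986, of which all but Ubxn4 are pseudogenes that share 50-base words with the genes themselves. The points share libraries and depth, and the profiles that led each list were chosen from many candidates, so the correlations are descriptions only.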

How the data were processed

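RNA-seq values of 3 unlasered and 4 lasered libraries labelled Irf8 KO were analysed, grouped by their labels. The authors removed adapters and duplicate reads (cutadapt, FastUniq), mapped the reads to the Ensembl mouse genome (GRCm38 per the labels) with bowtie2 and counted them per gene with HTSeq. The deposited values are headed TPM but are CPM: all values of a library were whole multiples of a single step within 5e-05 CPM, without division by gene length. Reads could thus be recovered. Of the rows, 4492 contain reads listed jointly with an overlapping gene and 126 contain antisense entries.

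Genes that reached 1 CPM in 3 or more libraries entered a fit of log2(CPM + 1) with limma 3.58.1 (R 4.3.3), using a mean-variance trend, robust empirical Bayes, two-sided tests and Benjamini-Hochberg adjustment over all genes tested. A gene was called at an adjusted p under 0.05. Whether libraries of a group came from separate cohorts is not given in the sources used here beyond the pooling of mice, so p-values measure the spread between these libraries. Alternatives were a pseudocount of 0.1, no filter, a mean of at least 10 CPM, median-of-ratios and TMM scaling, edgeR 4.0.16 and DESeq2 1.42.0 on recovered reads, the replicate number as a block, joint reads left out and each library left out. TMM scaling used factors from all listed genes, whereas edgeR used TMM factors from the genes tested. Adding copies together was chosen after seeing the data. The 10 genes and the gene lists were chosen with earlier results of these data known. Named were the 10 genes, up to 3 called genes per list and direction, Hsf1, Hsf2, Irf8, entries named as copies and the 5 most correlated genes per profile. Other pseudogenes, and Bag1, Fkbp5, Pfdn5, P2ry12 and the genes of the closing section, were named after their values were seen. Exonic lengths, positions and shared words of 50 bases came from GENCODE M21, promoter sequences from RefSeq. The fits were tested on simulated data. Figures were drawn with matplotlib 3.10.9 in Python 3.11.15.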

Additional observations from a re-analysis of the deposited data

How the results depend on the processing

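All 9 genes kept the sign of their log2 fold change under all alternatives that tested them, except Hspe1, which ranged from -0.16 (without unlasered library 3) to 0.21 when single libraries were left out. With DESeq2, Hsp90aa1 was called and Hspa1b was not. Of the 2 genes called, 0 remained called with a pseudocount of 0.1, with no filter, with edgeR and with the replicate block, and 0 were called at a mean of at least 10 CPM, where Hspa1a and Hspa1b were not tested. With copies added together 1 of 8 was called, the sum of the Hspa1a and Hspa1b entries. Between 0 and 2 were called when single libraries were left out. Of all genes tested, limma called 1213 (676 higher and 537 lower), 385 with no filter, 626 at a mean of at least 10 CPM (466 higher and 160 lower), 3 with the replicate block and 264 to 1248 when single libraries were left out. DESeq2 called 2318. TMM scaling by factors from all listed genes moved the split to 1045 higher and 472 lower. With edgeR, whose TMM factors came from the tested genes alone, the split was 662 higher and 604 lower. Of the 112 chaperone genes, 5 were called, 0 with no filter, 1 at a mean of at least 10 CPM, 3 with edgeR, 16 with DESeq2, 0 with the replicate block and 0 to 12 when single libraries were left out. With no filter 38566 genes were tested, and 10288 at a mean of at least 10 CPM. The cause of these shifts was not tested. The labels do not say whether the replicate numbers pair the libraries. Same-numbered libraries correlated at -0.183, -0.126 and -0.0234 in their deviations from the group means. So few libraries cannot decide whether they are paired. The block leaves lasered library 4, which has no library of the same number, without weight. For the 3 ratios, both scalings gave the same values by construction, and leaving out joint reads was not run because it removes Hspa8. With fewer than 100 reads in several libraries, depth also limits Hspa1a and Hspa1b, and Hspb1 could not be tested.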

Other observations

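Chaperones of the endoplasmic reticulum were examined beside Hspa5 after their values were seen. Hsp90b1, which encodes GRP94, the HSP90 of this compartment, was measured at 763, 865 and 801 CPM in unlasered and at 538, 474, 642 and 669.8 CPM in lasered libraries. All lasered libraries were lower, and the log2 fold change was -0.49 (limma, adjusted p = 0.074). Dnajc3, a co-chaperone of BiP, was at 187, 184 and 233 CPM in unlasered and at 141, 146, 167 and 154 CPM in lasered libraries, again without overlap (log2 fold change -0.40, limma, adjusted p = 0.10). Hyou1, an exchange factor of BiP, had a log2 fold change of 0.34 (limma, adjusted p = 0.50), so the named genes of this compartment did not all share a direction. Further genes of this compartment in the lists were not described. Over all genes tested, 10.7% were lower in all lasered libraries without overlap.

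Among small heat shock proteins, Hspb6 was measured at 7.10, 26.4 and 7.69 CPM in unlasered and at 3.13, 2.52, 3.18 and 4.23 CPM in lasered libraries. The groups did not overlap, the highest value was in unlasered library 2, and the log2 fold change was -1.56 (limma, adjusted p = 0.0504), just outside the threshold. Cryab, which encodes alpha B crystallin, was at 3.82, 8.09 and 3.19 CPM in unlasered and at 2.72, 2.81, 2.64 and 1.51 CPM in lasered libraries (log2 fold change -0.75, limma, adjusted p = 0.17). In both genes the highest library was also that with the most rod transcripts. The part of rod RNA was not tested.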
